A study of Homo sapiens with 74 samples.

Results

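Haem biosynthesis is described here through 9 genes: ALAS1, ALAS2, ALAD, UROS, UROD, CPOX, PPOX, FECH and SLC25A37. They were chosen by name as enzymes of the pathway and its mitochondrial iron importer, out of 28131 genes in each of the tables of RNA-seq counts, and all 9 were found in both. The messenger RNA came from K562 and HEL, established human erythroleukaemia lines that express fetal globins. K562 was represented by wild-type control cells, by DOT1L-/- cells (DOT1L KO) and by ENL-/- cells (ENL KO). HEL was represented by control cells and by cells with DOT1L knockdown (DOT1L KD). DOT1L is the methyltransferase of lysine 79 of histone H3, and ENL, encoded by MLLT1, is an acetyl-lysine reader that works with it. The clone behind each knockout and the reagent behind the knockdown are not given in the sources used here. After identical columns had been counted once, 12 of the 74 samples of the series were used: 2 K562 control, 3 DOT1L KO, 3 ENL KO, 2 HEL control and 2 HEL DOT1L KD libraries.

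Haem is made in steps that start and end in the mitochondrion and run through the cytosol in between. ALA synthase joins glycine and succinyl-CoA, the product is condensed and cyclised into porphyrins by cytosolic enzymes, and the last oxidations and the insertion of iron take place in the mitochondrion. ALA synthase exists as a ubiquitous form, ALAS1, and an erythroid form, ALAS2, and red cell precursors raise the whole pathway as they begin to make haemoglobin. The 9 genes do not cover every step of the pathway, and the remaining enzyme genes are not analysed here.

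Total counts ran from 15404944 to 29236703 fragments in K562 and from 12151495 to 12811688 reads in HEL, and no member had fewer than 311 counts in any library. K562 control columns 2 and 3 were identical in every gene and were counted as 1 library. The DOT1L transcript stood at 263 ± 9.84 CPM (a normalised count, scaled by library size and TMM factor; SD, n = 2) in K562 controls, 182 ± 5.15 (n = 3) in DOT1L KO, 92.4 ± 7.12 (n = 2) in HEL controls and 29.6 ± 0.641 (n = 2) in HEL DOT1L KD. MLLT1 stood at 216 ± 3.56 CPM (n = 2) in K562 controls and 154 ± 1.92 (n = 3) in ENL KO. All 8 erythroid markers examined exceeded 1 CPM in every group. Their summed level was 5150 to 5550 CPM in K562 controls, 6370 to 6810 in DOT1L KO, 5510 to 5620 in ENL KO, 5340 to 5440 in HEL controls and 7480 to 8160 in HEL DOT1L KD. Of 18 markers of T, B, monocytic, fibroblast, epithelial and endothelial cells, 5 to 8 exceeded 1 CPM in a group. Their sums were 933 to 944 CPM in K562 controls, 1130 to 1210 in DOT1L KO, 960 to 1070 in ENL KO, 355 to 362 in HEL controls and 600 to 602 in HEL DOT1L KD. KRT8 (689 CPM in K562 controls) and PECAM1 (290 CPM in HEL controls) held most of these sums, LYZ stood at 34.0 CPM in K562 controls and 310 CPM in DOT1L KO, and MS4A1 was at 0 in all 5 groups. EPCAM and CD3D stood at 120 and 51.9 CPM in K562 controls and at 81.8 and 17.4 in DOT1L KO. COL1A1 went from 10.9 CPM in K562 controls to 117 in DOT1L KO, and COL3A1 from 1.92 to 14.6. CD8A and CDH5 were at 0 in all K562 groups, and CD3E and DCN in both HEL groups. Among the erythroid markers, TFRC went against the K562 sums, at 2310 CPM in controls, 1920 in DOT1L KO and 1940 in ENL KO. The part of any of these markers in the values below was not tested. The labels name a sequencing lane for K562 control and DOT1L KO but none for ENL KO, so the effect of the ENL knockout and that of a batch cannot be told apart. The biological coefficient of variation was 6.34% over K562 and 1.83% over HEL, so smaller changes passed the test in HEL. Nothing in the labels says that replicates came from separate cultures, so p-values measure only the spread between these libraries, which may be technical.

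In K562 without DOT1L, 6 of the 9 genes rose and none fell: ALAS2 by 6.38-fold, PPOX by 3.77-fold, SLC25A37 by 2.22-fold, and UROS, FECH and ALAD by 1.66-, 1.53- and 1.43-fold. Of all 14301 genes tested, 26.9% were called higher and 24.2% lower (edgeR quasi-likelihood test, adjusted p under 0.05). The median log2 fold change of the 9 genes was 0.62, beside 0.011 over all genes. ALAS1, UROD and CPOX did not pass the test.

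In K562 without ENL, 6 of the 9 genes also rose and none fell. ALAS2 rose by 2.84-fold, PPOX by 1.76-fold, and UROD, CPOX, UROS and FECH by 1.34-, 1.33-, 1.31- and 1.29-fold. The test called 18.8% of all genes higher and 22.2% lower, and the median log2 fold change was 0.39 for the 9 genes and 0.003 over all genes. Both knockouts were set against the same control libraries, so their changes are not independent of each other. ALAD and SLC25A37 were called in DOT1L KO and not in ENL KO, and UROD and CPOX in ENL KO and not in DOT1L KO. Compared directly, 6 genes were higher in DOT1L KO than in ENL KO (SLC25A37, ALAS2, PPOX, ALAD, UROS and FECH), 2 were lower (CPOX and UROD), and ALAS1 did not pass the test. In that comparison 31.8% of all genes were called higher and 28.3% lower.

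In HEL with DOT1L knockdown, 5 genes rose (PPOX by 2.54-fold, UROD by 1.45-fold, FECH by 1.18-fold, and SLC25A37 and ALAS2 by 1.10-fold each), 2 were called lower and 2 did not pass the test. Over all 12635 genes tested in HEL, 27.0% were called higher and 28.0% lower. In absolute size, the median log2 fold change was 0.14 for the 9 genes and 0.24 over all genes, and PPOX and UROD alone among the 9 exceeded 0.5. The plot of fold changes shows ALAS2 far to the right in K562 and close to 0 in HEL, and PPOX to the right in all 3 comparisons.

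**Figure D1:**
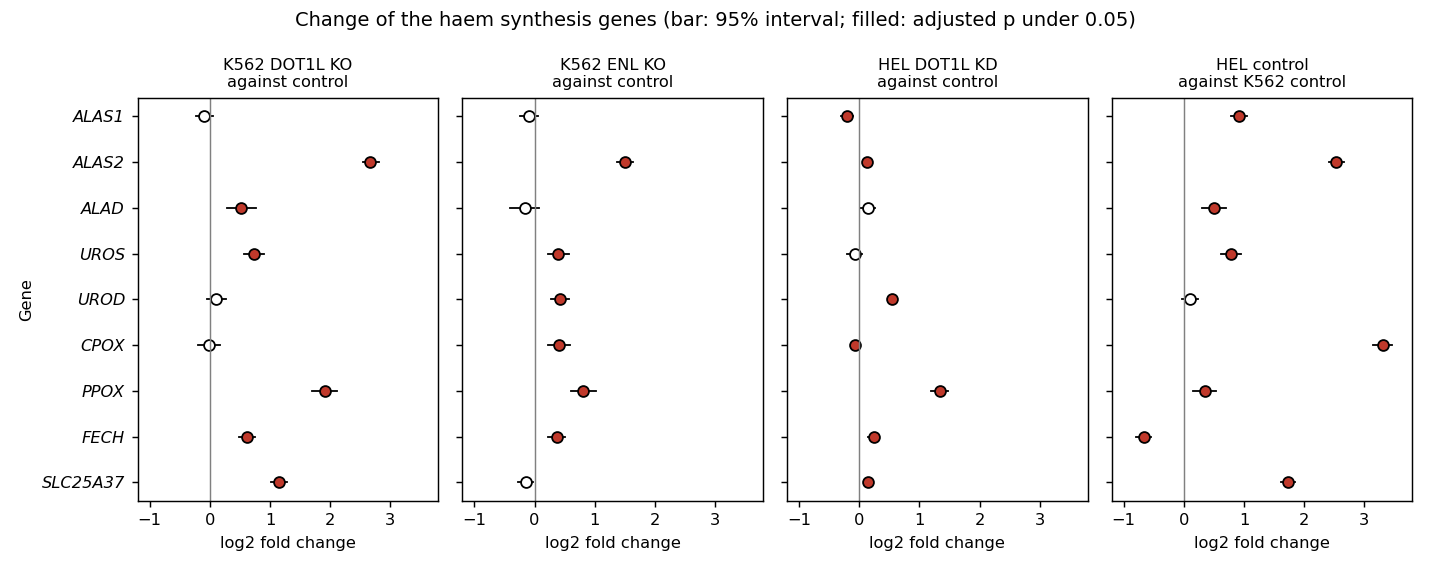
Log2 fold change of each gene (points) with its 95% interval (bars) in 4 comparisons, filled where the edgeR adjusted p was under 0.05. ALAS2 lies at 2.67 in K562 DOT1L KO, 1.51 in ENL KO and 0.13 in HEL DOT1L KD, and CPOX lies at 3.31 in HEL control against K562 control.

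**Figure D2:**
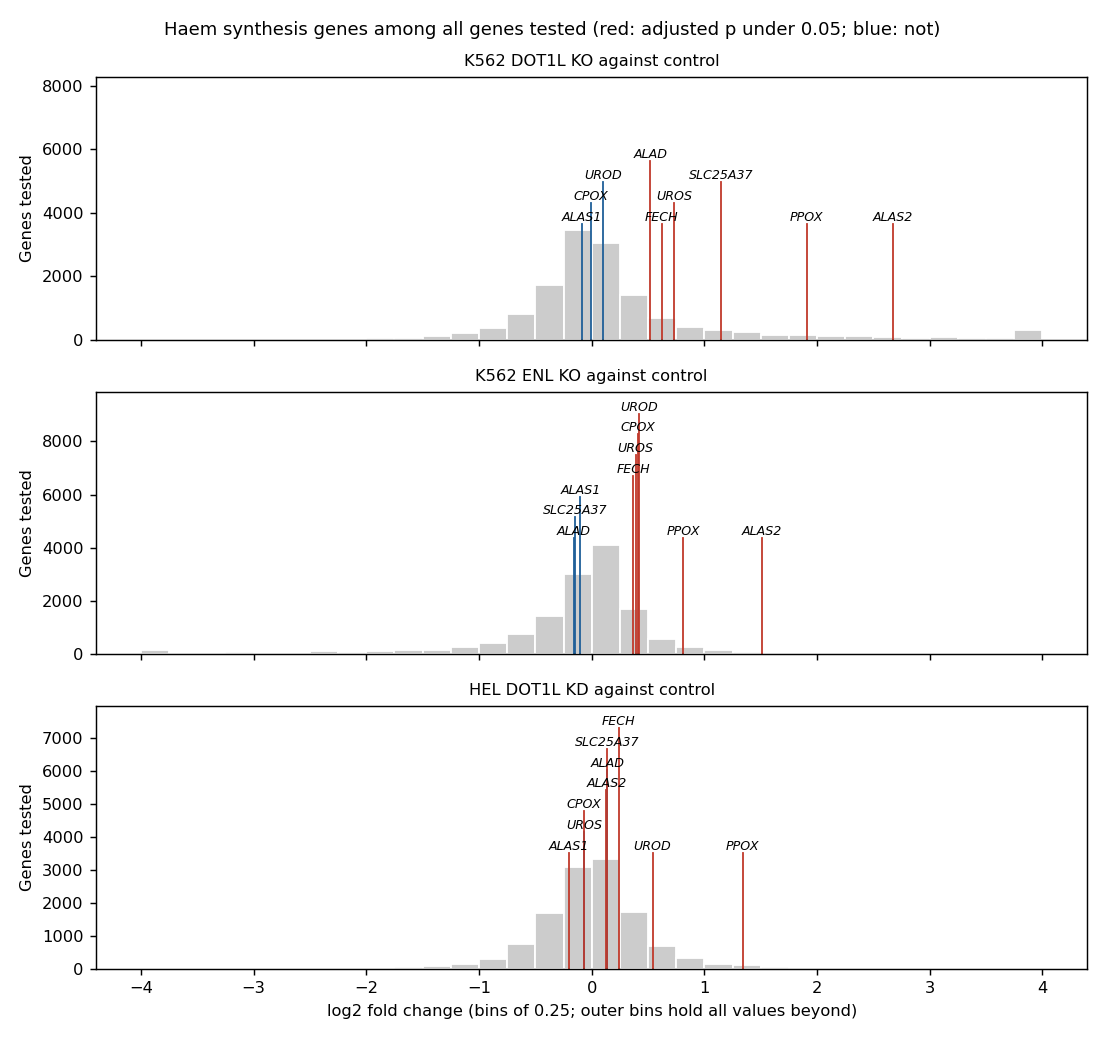
Number of tested genes per bin of log2 fold change (grey bars; the outer bins hold all values beyond them) with the 9 members marked by lines, red where called and blue where not. In K562 DOT1L KO 4.34% of tested genes had a higher value than ALAS2, and in HEL DOT1L KD 1.79% had a higher value than PPOX; in HEL the lines of ALAD and UROS, which were not called, lie under those of SLC25A37 and CPOX.

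Levels of different genes were compared per kilobase of exon. In K562 controls UROD was the most abundant at 234 ± 16.6 CPM per kilobase (SD, n = 2), followed by SLC25A37 at 35.9 ± 1.80. CPOX, ALAS2 and ALAS1 came next at 27.5 ± 3.81, 26.1 ± 2.08 and 24.5 ± 0.990, and neighbours among these 3 overlapped between libraries. FECH followed at 20.4 ± 1.20, and PPOX, UROS and ALAD closed the order at 11.5 ± 0.405, 10.7 ± 1.03 and 9.36 ± 1.02, again with overlapping neighbours. From the top of this order to the bottom the level fell 25.0-fold.

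The order shifted with the knockouts. In DOT1L KO no neighbours overlapped, and ALAS2 stood in the second place at 166 ± 3.45 CPM per kilobase (n = 3), behind UROD at 251 ± 16.8, while PPOX moved up to the fourth at 43.5 ± 2.60. In ENL KO the order ran UROD, ALAS2, CPOX, SLC25A37, FECH, ALAS1, PPOX, UROS and ALAD, from 314 ± 22.7 down to 8.34 ± 1.04, and ALAS1 and PPOX overlapped. HEL controls were led by CPOX at 260 ± 7.18 (n = 2), then UROD at 238 ± 1.42, ALAS2 at 144 ± 0.729 and SLC25A37 at 113 ± 1.10, with FECH at the bottom at 12.3 ± 0.165. In HEL DOT1L KD UROD led at 346 ± 10.0 and CPOX came second at 247 ± 2.48. The K562 and HEL tables were scaled separately for these levels, so the lines are compared further on, from a joint scaling.

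**Figure D3:**
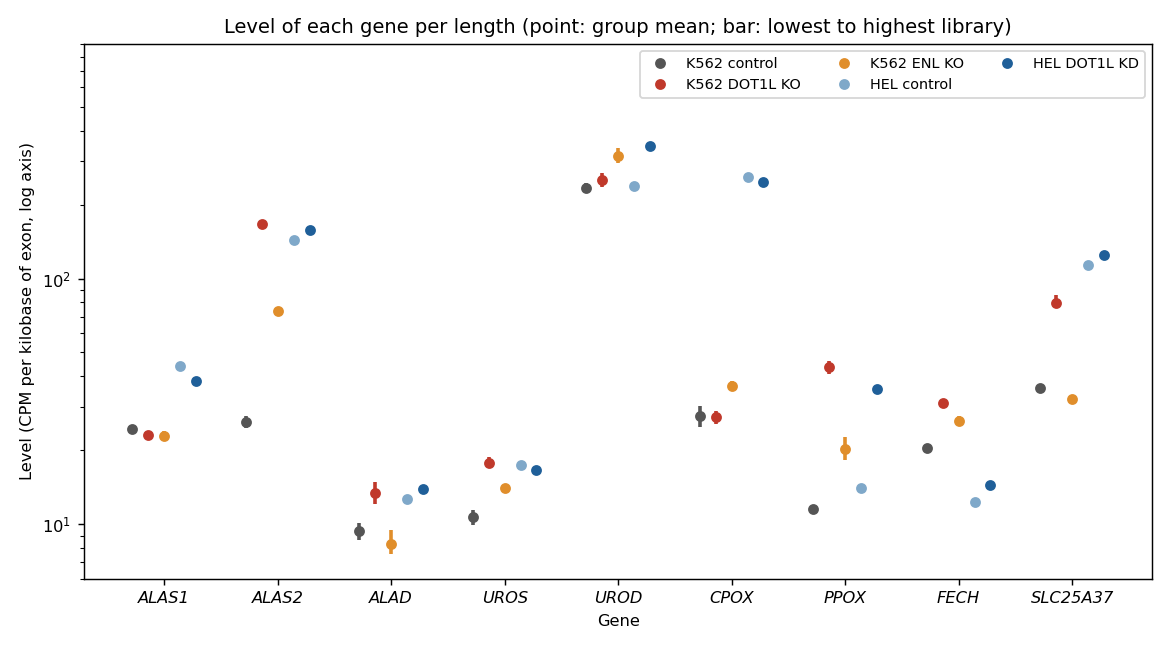
Level of each gene in CPM per kilobase of exon on a log axis, by group (points are group means, bars run from the lowest to the highest library). The lines were scaled separately: UROD leads all 3 K562 groups, at 234 to 314, and in HEL CPOX leads the controls at 260 and UROD the DOT1L KD at 346.

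ALAS1 and ALAS2 catalyse the same first and rate-limiting step from genes on different chromosomes. ALAS1 spans chromosome 3, 52198083 to 52214327 (GRCh38, plus strand, 2452 exonic bases), and ALAS2 spans chromosome X, 55009055 to 55031064 (minus strand, 2134 exonic bases). RefSeq promoter windows (GRCh38.p14, 250 bases before and 50 after a start site) matched 7 of the 9 members. They were searched on both strands for a GATA site, the element bound by the erythroid factor GATA1, spelled AGATAA or AGATAG or TGATAA or TGATAG. ALAD and PPOX have 2 windows each. Such a site lay upstream of the start in 4 of the members' 9 windows, 1 each of ALAS2, ALAD, CPOX and PPOX, and in 22.4% of all 34943 windows; a match is a description of the letters and not a bound site. The sites of ALAD and PPOX lie in the window of an inner start site, inside the annotated gene. The whole windows were also searched for other elements, the CACCC box, GC box, E-box and NRF1 core. The CACCC box, GC box and E-box matched 8, 7 and 8 of the members' 9 windows (6 members each), and 56.1%, 44.9% and 68.7% of all windows. The NRF1 core matched ALAS1 alone, and 3.02% of all windows. Its 2 matches, bases 22 to 29 and 24 to 31 from the start, overlap on opposite strands and mark 1 place. ALAS1 and ALAS2 both held CACCC boxes and E-boxes, and ALAS1 but not ALAS2 held GC boxes. Whether any of these elements has a part in the changes was not tested. The stretches before the first annotated base are shown for ALAS1, chr3:52197833-52198082 (plus strand), and ALAS2, chrX:55031065-55031227 (minus strand), because these isoenzymes behaved differently; capitals mark the GATA site in the reverse orientation, which ALAS1 lacked.
ALAS1 upstream: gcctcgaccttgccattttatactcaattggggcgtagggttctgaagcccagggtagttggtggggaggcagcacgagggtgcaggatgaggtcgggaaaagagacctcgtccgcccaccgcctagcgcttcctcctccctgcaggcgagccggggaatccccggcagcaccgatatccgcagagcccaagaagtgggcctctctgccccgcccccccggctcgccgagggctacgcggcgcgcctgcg
ALAS2 upstream: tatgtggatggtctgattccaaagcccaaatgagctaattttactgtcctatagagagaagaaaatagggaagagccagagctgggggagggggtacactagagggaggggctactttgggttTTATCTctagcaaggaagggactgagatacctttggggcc
The early transcribed part of ALAS2 also holds an iron-responsive element, a hairpin that lets iron regulatory proteins block translation when iron is low. Its loop, spelled CAGTGN on the sense strand, was found within the first 50 transcribed bases in ALAS2 alone among the matched members and in 6.37% of all windows. The site is shown because it ties ALAS2 output to iron beyond what transcript counts measure, with the loop in capitals (chrX:55030941-55030968, minus strand).
ALAS2 element: tcgttcgtcctCAGTGCagggcaacagg

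ALAS2 was counted at 52.5 and 58.8 CPM in the K562 controls, at 347, 361 and 357 in DOT1L KO and at 160, 156 and 157 in ENL KO. The 3 groups did not overlap: every DOT1L KO library was above every ENL KO library, and every ENL KO library above both controls. The log2 fold change was 2.67 ± 0.064 (SE) in DOT1L KO (edgeR adjusted p = 8.98e-12) and 1.51 ± 0.062 in ENL KO (adjusted p = 5.76e-10). DOT1L KO exceeded ENL KO by 1.17 ± 0.051 (adjusted p = 2.59e-10). In these bulk libraries, a larger share of cells expressing a gene and more RNA per cell cannot be told apart. HEL controls stood at 308 and 306 CPM, and HEL DOT1L KD at 336 and 338, a log2 fold change of 0.13 ± 0.032 (adjusted p = 0.000363). Although it passed the test, the HEL change is small beside those in K562.

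ALAS1 did not pass the test in either K562 knockout. It was counted at 61.8 and 58.4 CPM in the controls, 58.6, 56.5 and 54.1 in DOT1L KO and 58.6, 55.0 and 54.9 in ENL KO, and the groups overlapped. The 95% interval of the log2 fold change ran from -0.23 to 0.05 in DOT1L KO and from -0.24 to 0.05 in ENL KO (edgeR adjusted p = 0.264 and 0.266). In HEL, ALAS1 fell from 109 and 107 CPM to 97.6 and 90.0, a log2 fold change of -0.20 ± 0.048 (adjusted p = 0.000274), with no overlap between groups.

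The isoenzymes were also set against each other within each library, with no test of the ratio. Per kilobase, ALAS2 stood at 0.975 and 1.16 times the level of ALAS1 in the K562 controls, at 6.81, 7.35 and 7.59 times in DOT1L KO and at 3.14, 3.27 and 3.29 times in ENL KO. HEL controls stood at 3.23 and 3.29 times and HEL DOT1L KD at 3.95 and 4.31 times. K562 controls had about equal levels of both forms, the ratios of ENL KO overlapped those of HEL controls, and all 3 DOT1L KO ratios were above all others.

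**Figure D4:**
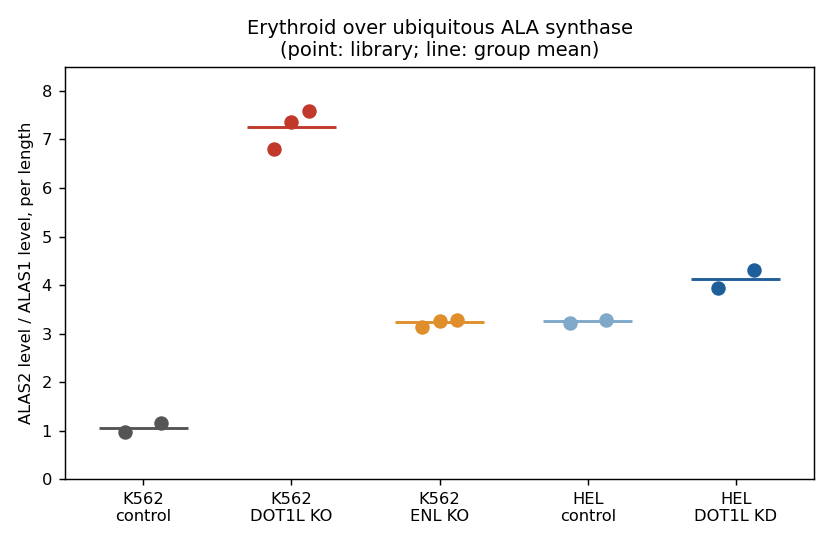
Ratio of the ALAS2 level to the ALAS1 level, both per kilobase of exon, in each library (points) with the group mean (lines). The mean is 1.07 in K562 controls, 7.25 in DOT1L KO, 3.23 in ENL KO, 3.26 in HEL controls and 4.13 in HEL DOT1L KD.

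ALAD, UROS and UROD encode cytosolic enzymes: ALAD condenses ALA into porphobilinogen, UROS closes the ring to uroporphyrinogen and UROD decarboxylates it to coproporphyrinogen. In the count tables ALAD lies on chromosome 9 (113386312 to 113401338, minus strand), UROS on chromosome 10 (125784981 to 125823268, minus strand) and UROD on chromosome 1 (45012133 to 45015669, plus strand). ALAD stood at 35.7 and 30.6 CPM in K562 controls, 52.2, 47.2 and 42.9 in DOT1L KO and 33.7, 28.1 and 26.8 in ENL KO. All DOT1L KO libraries were above all others of K562, whereas ENL KO overlapped the controls. Its log2 fold change was 0.52 ± 0.11 in DOT1L KO (edgeR adjusted p = 0.00148), and in ENL KO its interval ran from -0.41 to 0.08 (adjusted p = 0.277). HEL gave 44.3 and 45.3 CPM in controls and 50.1 and 48.6 in DOT1L KD, a log2 fold change of 0.14 ± 0.064 that missed the threshold (adjusted p = 0.0609) but passed it with upper-quartile factors (adjusted p = 0.00411).

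UROS had the same order of groups as ALAS2 in K562. It was counted at 30.2 and 34.6 CPM in controls, 52.1, 52.5 and 56.7 in DOT1L KO and 42.5, 42.0 and 43.4 in ENL KO, with no overlap among the 3 groups. The log2 fold changes were 0.73 ± 0.078 in DOT1L KO (edgeR adjusted p = 3.93e-06) and 0.39 ± 0.079 in ENL KO (adjusted p = 0.00126). In HEL it stood at 54.8 and 51.1 CPM in controls and 49.5 and 51.2 in DOT1L KD, which overlapped, and the interval ran from -0.20 to 0.05.

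UROD showed another pattern. It was counted at 362 and 328 CPM in K562 controls, 397, 369 and 347 in DOT1L KO and 500, 454 and 435 in ENL KO, so that only ENL KO stood clear of the controls. The log2 fold change was 0.10 in DOT1L KO (interval -0.05 to 0.26; edgeR adjusted p = 0.254) and 0.42 ± 0.074 in ENL KO (adjusted p = 0.000438). The knockouts differed directly by -0.32 ± 0.065 (DOT1L KO minus ENL KO, adjusted p = 0.00081). In HEL, UROD rose from 353 and 350 to 501 and 522 CPM, by 0.54 ± 0.031 (adjusted p = 3.47e-21).

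CPOX and PPOX carry out the mitochondrial oxidations, from coproporphyrinogen to protoporphyrinogen and on to protoporphyrin. CPOX lies on chromosome 3 (98579446 to 98593611, minus strand, 2709 exonic bases) and PPOX on chromosome 1 (161166381 to 161171220, plus strand, 1829 exonic bases). PPOX was the member that rose by more than 1.5-fold in all 3 comparisons with a control. It was counted at 21.6 and 20.6 CPM in K562 controls, 84.3, 74.8 and 79.4 in DOT1L KO and 41.5, 36.1 and 33.3 in ENL KO, and no groups overlapped. HEL controls gave 26.4 and 24.7 CPM and DOT1L KD 66.4 and 63.2. The log2 fold changes were 1.91 ± 0.097 in DOT1L KO (edgeR adjusted p = 2.40e-09), 0.81 ± 0.098 in ENL KO (adjusted p = 1.81e-05) and 1.34 ± 0.069 in HEL (adjusted p = 4.85e-23).

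CPOX was the member that separated the cell lines most. It stood at 81.8 and 67.2 CPM in K562 controls, 69.6, 78.4 and 73.5 in DOT1L KO and 103, 96.8 and 96.2 in ENL KO. DOT1L KO overlapped the controls (log2 fold change -0.01, interval -0.19 to 0.17; edgeR adjusted p = 0.915), and ENL KO lay above them by 0.41 ± 0.083 (adjusted p = 0.00144; 0.27 without control library 2). HEL controls stood at 717 and 689 CPM and DOT1L KD at 664 and 674. The HEL difference of -0.07 ± 0.029 (adjusted p = 0.0306) was 0.0015 with upper-quartile factors and was lost when HEL control library 1 or either DOT1L KD library was left out, so no direction is drawn from it.

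The sequences upstream of CPOX, chr3:98593612-98593861 (minus strand), and PPOX, chr1:161166176-161166380 (plus strand), are shown as those of the neighbouring steps that differed in their changes, with GATA sites in capitals. CPOX held 2 GATA sites in its 250 upstream bases, and PPOX held none before its first annotated base but 1 ahead of a start site further inside the gene (chr1:161166571-161166600, plus strand).
CPOX upstream: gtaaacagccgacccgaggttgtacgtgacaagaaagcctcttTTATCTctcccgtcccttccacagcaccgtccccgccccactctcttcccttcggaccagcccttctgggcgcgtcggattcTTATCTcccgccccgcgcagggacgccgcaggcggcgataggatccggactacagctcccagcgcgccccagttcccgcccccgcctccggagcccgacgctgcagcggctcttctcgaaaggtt
PPOX upstream: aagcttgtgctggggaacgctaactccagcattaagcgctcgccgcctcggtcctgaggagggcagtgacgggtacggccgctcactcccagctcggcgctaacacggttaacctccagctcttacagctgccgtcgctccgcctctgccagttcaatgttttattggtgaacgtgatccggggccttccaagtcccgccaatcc
PPOX inner site: agggtgtggcccTTATCTgcacccagcaga
CPOX held more of these sites than PPOX, and ALAS2 held 1. Whether the sites have a part in the changes was not tested.

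FECH, the ferrochelatase that inserts iron into protoporphyrin, lies on chromosome 18 (57544389 to 57586702, minus strand, 7695 exonic bases). It was counted at 150 and 163 CPM in K562 controls, 229, 249 and 243 in DOT1L KO and 193, 203 and 213 in ENL KO, with no overlap. The log2 fold changes were 0.62 ± 0.063 in DOT1L KO (edgeR adjusted p = 2.67e-06), 0.37 ± 0.063 in ENL KO (adjusted p = 0.000371) and, between the knockouts, 0.25 ± 0.055 (adjusted p = 0.00174). HEL rose from 95.5 and 93.7 CPM to 111 and 112, by 0.24 ± 0.046 (adjusted p = 1.74e-05).

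**Figure D5:**
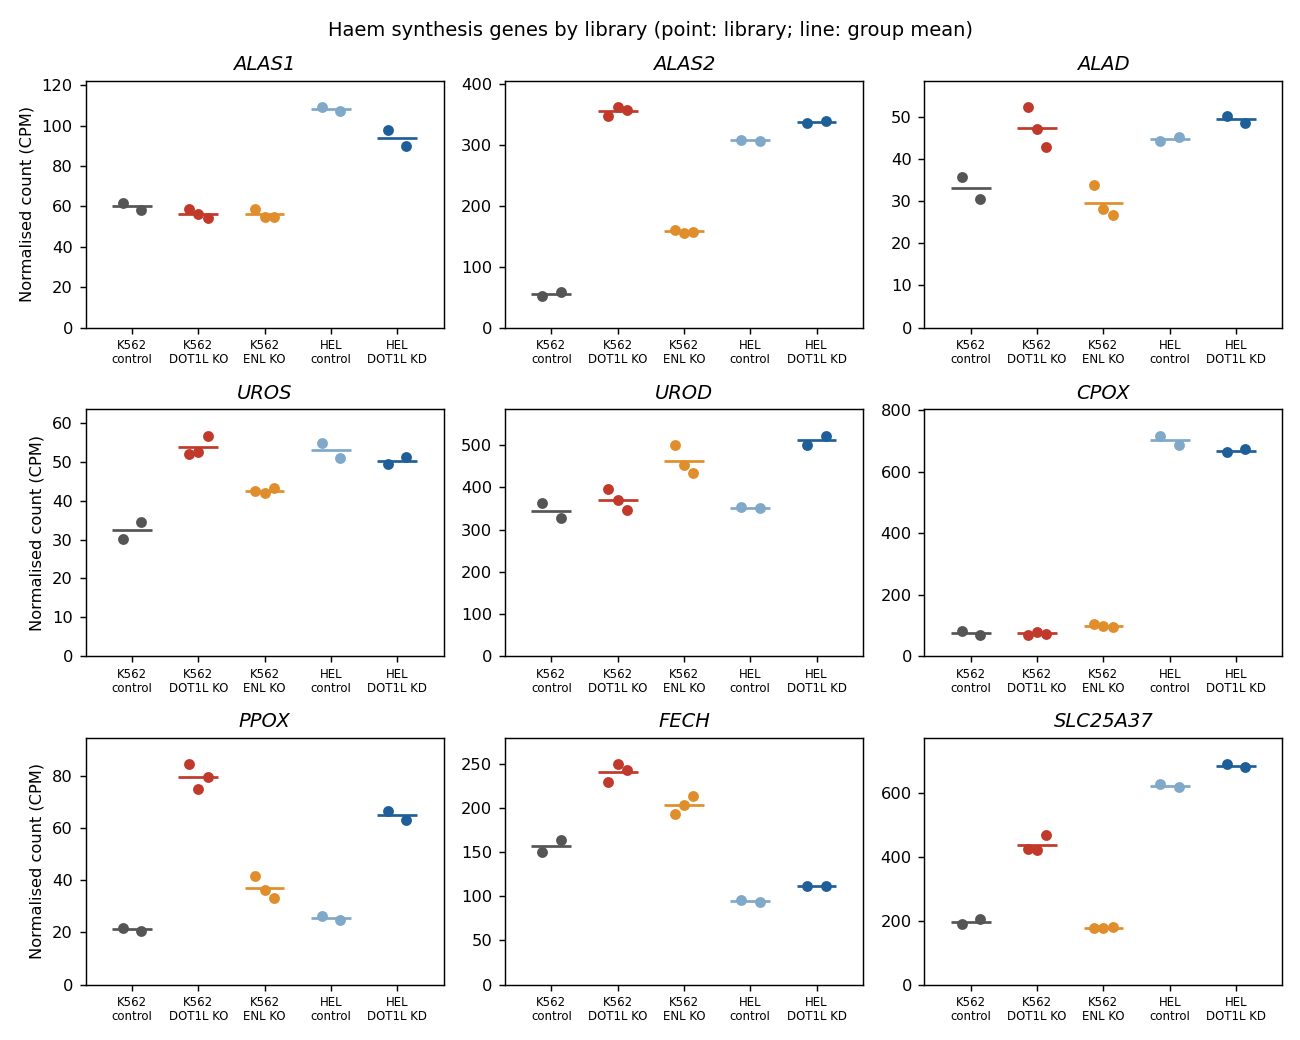
Normalised count (CPM, axis from 0) of each gene in every library (points) with the group mean (lines), K562 and HEL scaled in their own tables. ALAS2, UROS, PPOX, FECH and SLC25A37 separate the 3 K562 groups and ALAS1 does not. For SLC25A37 the ENL KO libraries lie below the controls, a difference that was not called. Within HEL, UROD and PPOX differ by the largest folds between control and DOT1L KD.

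SLC25A37, or mitoferrin, carries iron into the mitochondria of red cell precursors and lies on chromosome 8 (23528795 to 23575463, plus strand, 5505 exonic bases). It was counted at 190 and 205 CPM in K562 controls, 425, 423 and 470 in DOT1L KO and 179, 177 and 180 in ENL KO. DOT1L KO stood above both other groups, by 1.15 ± 0.062 against controls (edgeR adjusted p = 4.18e-09) and by 1.30 ± 0.054 against ENL KO (adjusted p = 1.65e-10). ENL KO libraries were below both controls, but the log2 fold change of -0.15 ± 0.060 missed the threshold (adjusted p = 0.0695). It passed with upper-quartile factors (adjusted p = 0.0406), with every column as its own library (0.0167), with a replicate block (0.00436) and without DOT1L KO library 3 (0.0446), and rose to 0.409 without control library 2. In HEL the gene went from 628 and 620 CPM to 691 and 683, by 0.14 ± 0.028 (adjusted p = 3.87e-05).

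The response to DOT1L depletion differed between the lines in 7 of the 9 genes by the interaction term of a joint fit, 6 with a smaller value in HEL and 1, UROD, with a larger one. Of 15367 genes tested, 19.8% were called larger and 19.1% smaller in HEL. The difference, HEL minus K562, was -2.52 ± 0.077 for ALAS2, -0.99 ± 0.077 for SLC25A37 and -0.78 ± 0.11 for UROS (edgeR adjusted p = 7.11e-16, 1.33e-09 and 5.57e-06). PPOX rose in both lines and differed by -0.55 ± 0.11 (adjusted p = 0.00046). FECH differed by -0.36 ± 0.081 (adjusted p = 0.00118), and ALAD by -0.36 ± 0.13 (adjusted p = 0.0272), a call that was lost without K562 control library 2 (adjusted p = 0.161) or any HEL library. UROD differed by 0.45 ± 0.084 (adjusted p = 0.000179), and ALAS1 and CPOX did not pass the test (intervals -0.28 to 0.09 and -0.24 to 0.16). K562 carried a knockout and was counted in fragments, HEL carried a knockdown and was counted in reads, and these differences cannot be told apart from that between the lines.

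Control HEL and control K562 differed in 8 of the 9 genes, 7 higher in HEL and 1 lower, where 41.3% of all genes were called higher and 44.2% lower. The total of 8, both directions together, lies near the share of all genes, 13149 of 15367, so nothing is read from that total. The split by direction was not tested. In absolute size, the median log2 difference was 0.78 for the 9 genes and 1.3 over all genes. It reached 1 in 3 of the 9 and in 59.2% of all genes. With both lines scaled together, CPOX stood at 725 ± 22.7 CPM (SD, n = 2) in HEL and 73.3 ± 10.5 (n = 2) in K562, a 9.90-fold difference and the largest among the members. ALAS2 was 5.79-fold, SLC25A37 3.31-fold, ALAS1 1.88-fold, UROS 1.72-fold, ALAD 1.42-fold and PPOX 1.27-fold higher in HEL. FECH was lower in HEL, at 97.5 ± 1.66 CPM against 154 ± 8.34, a log2 difference of -0.66 ± 0.060 (edgeR adjusted p = 1.35e-09). UROD was at 363 ± 3.47 and 339 ± 25.6 CPM, with an interval of -0.03 to 0.23.

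Mitochondrial partners of the pathway, 22 genes of iron-sulphur cluster assembly, porphyrin transport and substrate supply, held 21 tested genes, of which 2 rose and 6 fell in DOT1L KO (median log2 fold change -0.07), beside 26.9% and 24.2% of all genes. ABCB6, a porphyrin transporter, rose from 49.7 ± 2.52 to 84.9 ± 1.34 CPM, and ABCB10, an inner-membrane transporter that binds mitoferrin, from 102 ± 5.51 to 181 ± 23.5 (edgeR adjusted p = 2.43e-07 and 3.20e-05). TSPO, a porphyrin-binding protein of the outer membrane, fell from 57.1 ± 4.55 to 19.7 ± 1.29 CPM, and GLRX5, which hands on iron-sulphur clusters, from 83.4 ± 5.20 to 54.6 ± 3.51 (adjusted p = 9.88e-09 and 1.09e-05). In ENL KO 6 rose and 2 fell (median 0.06), beside 18.8% and 22.2% of all genes. FAM210B, a mitochondrial protein that acts on ferrochelatase, rose from 147 ± 10.1 to 198 ± 12.4 CPM and the glycine carrier SLC25A38 from 59.2 ± 4.59 to 77.7 ± 1.85. The genes that fell were TSPO, to 37.7 ± 3.06 CPM, and CLPX, an unfoldase that acts on ALA synthase, from 92.7 ± 2.37 to 73.8 ± 2.98. In HEL 9 of 21 rose and 5 fell (median 0.09), beside 27.0% and 28.0% of all genes, among them FAM210B, from 31.9 ± 0.482 to 89.8 ± 2.74 CPM, and the glutathione carrier SLC25A39, from 56.8 ± 0.257 to 101 ± 6.26. ISCA2, of cluster assembly, fell from 13.6 ± 0.671 to 9.01 ± 0.940 CPM in HEL, and SUCLA2, a subunit of succinyl-CoA synthetase, from 70.7 ± 1.76 to 58.5 ± 0.547.

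Of 15 tested genes that break down, export, sense or use haem, 5 rose and 2 fell in DOT1L KO (median -0.08), beside 26.9% and 24.2% of all genes. In ENL KO 3 rose and 2 fell (median near 0), beside 18.8% and 22.2%, and in HEL 5 of 14 rose and 4 fell (median 0.05), beside 27.0% and 28.0%. The shares called higher lie near those of all genes, so nothing is read from these counts. ABCG2, an exporter of porphyrins, rose from 2.58 ± 0.031 to 36.4 ± 1.90 CPM in DOT1L KO (edgeR adjusted p = 1.36e-10). In ENL KO ABCG2 fell to 0.151 ± 0.123 CPM (adjusted p = 5.21e-07). In HEL it rose from 0.676 ± 0.278 to 1.65 ± 0.0831 CPM (adjusted p = 0.00636). In both of these comparisons its levels were under the mean of 5 CPM by which genes were named. BLVRB, a biliverdin reductase, was named by the same rule in all 3 comparisons: it stood at 345 ± 11.4 CPM in K562 controls, 514 ± 11.5 in DOT1L KO and 471 ± 34.5 in ENL KO, and went from 171 ± 4.60 to 235 ± 8.63 in HEL. HCCS, which attaches haem to cytochrome c, rose from 46.3 ± 0.736 to 55.2 ± 1.68 CPM in ENL KO. HMOX1, the inducible haem oxygenase, rose from 3.90 ± 0.208 to 5.39 ± 0.142 CPM in HEL (adjusted p = 0.0441). ACO1, the cytosolic aconitase that doubles as an iron regulatory protein, fell from 51.5 ± 0.620 to 32.5 ± 2.3 CPM in DOT1L KO and from 174 ± 0.111 to 117 ± 1.46 in HEL. BACH1, a repressor that binds haem, fell from 95.5 ± 4.73 to 77.5 ± 3.06 CPM in DOT1L KO, IREB2, another iron regulatory protein, from 182 ± 12.7 to 128 ± 7.97 in ENL KO, and COX15, of haem A synthesis, from 104 ± 0.246 to 90.5 ± 1.04 in HEL.

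Transcription factors with known sites in haem enzyme genes, listed together with cofactors of theirs, numbered 9 among those tested. In DOT1L KO 7 of 9 rose and 2 fell (median log2 fold change 0.37), beside 26.9% and 24.2% of all genes. TAL1 rose from 117 ± 2.27 to 216 ± 1.37 CPM and ZFPM1, the cofactor of GATA1, from 81.7 ± 5.16 to 150 ± 4.93, while LMO2, the bridge of the GATA1 and TAL1 complex, fell from 84.5 ± 3.69 to 57.0 ± 5.82 and SP1 from 194 ± 5.75 to 159 ± 2.57. In ENL KO 5 rose and 1 fell (median 0.19), beside 18.8% and 22.2% of all genes: ZFPM1 rose to 143 ± 18.3 CPM, GATA1 rose from 273 ± 10.0 to 387 ± 24.9, and NFE2 fell from 334 ± 1.87 to 279 ± 1.43. GATA1 and NFE2 were among the genes that rose in DOT1L KO, to 414 ± 10.7 and 430 ± 6.7 CPM. GATA1 did not pass the test in HEL. In HEL 5 rose and 2 fell (median 0.13), beside 27.0% and 28.0% of all genes, with ZFPM1 going from 20.2 ± 0.485 to 25.6 ± 1.54 CPM and TAL1 from 542 ± 5.10 to 630 ± 0.868. SP1 fell in HEL from 279 ± 1.32 to 234 ± 5.89 CPM and LDB1, another part of the GATA1 complex, from 506 ± 2.51 to 459 ± 9.42.

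The genes most like each member were sought among 11644 genes tested in both lines, by Pearson's r of log2 CPM over the 12 libraries after subtraction of each line's control mean. These libraries fall into 5 groups, so r follows mainly the group means and is given as a description. ALAS2 was matched most closely by TSPAN32 (r = 0.994), SLC25A37 by MYH15 (r = 0.995), UROS by SRSF6 (r = 0.989) and FECH by FBXO9 (r = 0.988). PPOX was matched by ABCB6 (r = 0.989), the porphyrin transporter named above, and next by C21orf58 and RHD (r = 0.982 and 0.981). UROD was matched by HK1 (r = 0.983), ALAD by CSTF2T (r = 0.975), CPOX by ASPSCR1 (r = 0.966) and ALAS1 by TRIM44 (r = 0.951).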

How the data were processed

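Polyadenylated RNA was sequenced as strand-specific libraries, per the labels' protocols. The authors deposited raw fragment counts per gene for K562 and raw read counts per gene for HEL, with the exonic length of each gene, per the file headers. The submitters' processing notes name fastp 0.13.1, HISAT2 2.1.0, Bowtie2 2.3.4.1 and featureCounts 1.6.1 with no role; the strand setting of counting is not given in the sources used here. No exon of a member overlaps an exon of another gene in the tables. Gene positions are those of the tables, and 93.7% of symbols matched RefSeq GRCh38.p14, where 99.98% of placed genes overlapped.

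The filterByExpr function kept genes with a minimum count of 10 and a minimum total of 15. They were then analysed with edgeR 4.0.16 (R 4.3.3), scaled with TMM and compared with the quasi-likelihood test, with Benjamini-Hochberg adjustment over all genes tested and a threshold of 0.05. K562 (8 libraries) and HEL (4) were fitted separately, and 9 libraries jointly for comparisons between lines. CPM values are TMM-scaled, and standard errors come from the F statistic. The tests were first run on simulated data. Alternatives were other scalings, DESeq2 1.42.0, no filter, a replicate block, stricter thresholds and leaving out libraries.

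Groups were taken from the labels. All 9 members were named, and from each list, per comparison with a control, at most the 2 largest called changes in each direction with a mean of at least 5 CPM in 1 group. The 9 members and the lists were chosen with earlier results of these data known.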

Additional observations from a re-analysis of the deposited data

Results flagged for a closer look

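The change after DOT1L depletion differed between HEL and K562 in 7 of the 9 genes, by the interaction of cell line and depletion in edgeR. Of all 15367 genes tested, 19.8% were called larger and 19.1% smaller in HEL. The line cannot be told apart from knockout or knockdown, nor from counting in fragments or reads. The difference of the log2 changes (HEL minus K562) was -2.52 ± 0.077 (SE) for ALAS2 and -0.99 ± 0.077 for SLC25A37, adjusted p = 7.11e-16 and 1.33e-09. It was -0.78 ± 0.11 for UROS and -0.55 ± 0.11 for PPOX, adjusted p = 5.57e-06 and 0.00046. FECH gave -0.36 ± 0.081 (adjusted p = 0.00118), and UROD, the member with a larger change in HEL, gave 0.45 ± 0.084 (adjusted p = 0.000179). ALAD gave -0.36 ± 0.13 (adjusted p = 0.0272), and adjusted p for it rose to 0.161 without K562 control library 2 and it passed the threshold in 4 of 9 fits that left out a library.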

How the results depend on the processing

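Of 891 log2 fold changes recomputed for single members under the alternatives, 838 kept their side of the threshold, 44 were no longer past it and 8 were newly past it. Of the 838, 12 that were past it in neither fit changed sign: 6 of CPOX in K562 DOT1L KO (0.0031 to 0.13), 4 of ALAS1 between the knockouts (-0.02 to -0.01), 1 of CPOX in the interaction (0.10) and 1 of UROS in HEL (0.00057). The 1 called value that changed sign was CPOX in HEL DOT1L KD, at 0.0015 with upper-quartile factors (adjusted p = 0.971; 0.00084 to 0.971 over its alternatives). With an added minimum log2 fold change of 1, the members called fell to 3 in K562 DOT1L KO, 1 in ENL KO, 3 between the knockouts, 1 in HEL DOT1L KD, 1 in the interaction and 3 between the control lines. Over all genes, that setting called 2265 of 14301 in K562 DOT1L KO, 1573 in ENL KO and 2744 between the knockouts. It called 738 of 12635 in HEL DOT1L KD, 1950 of 15367 in the interaction and 8784 of 15367 between the control lines. At every other setting, leaving out libraries included, the number of members called stayed within 1.5 times its value. A library was left out also where 1 then remained in a group; that library was assumed to vary like the other groups. UROD in HEL control against K562 control was called without K562 control library 1 (adjusted p = 0.0457; 0.0457 to 0.839 over its alternatives), and ALAD in the interaction was lost without K562 control library 2 or any 1 of the 4 HEL libraries (adjusted p up to 0.161).

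Samples that shared a replicate number had correlations of their deviations from 0.0531 to 0.22 in K562 and of 0.000442 in HEL. K562 samples with different numbers had correlations from -0.158 to 0.0881. Deviations were taken from each group's mean, so in a group of 2 libraries they mirror each other. All HEL pairs therefore held the same value with either sign. This centring also ties same-numbered to different-numbered pairs in K562, so no conclusion is drawn from their contrast. The main fits held no replicate block, so any part shared by number in K562 stays in their spread. Such a block changed the calls over all genes from 7305 to 8340 in DOT1L KO and from 5863 to 7021 in ENL KO. In HEL they went from 6951 to 6903. With a replicate block the members called were 7 in K562 DOT1L KO (UROD added, log2 fold change 0.15), 7 in ENL KO (SLC25A37 added, -0.17), 8 between the knockouts and 7 in HEL. Over all genes, DESeq2 called 4561 in HEL DOT1L KD and edgeR 6951. The median log2 difference of all genes between control HEL and K562 was -0.09, and -0.17 with library size alone.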
